A study of Homo sapiens with 18 samples.

Results

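The proteins that carry out and steer pre-mRNA splicing were followed through 70 protein-coding genes whose symbols begin with SNRP, SF3A, SF3B, U2AF, PRPF, SRSF or HNRNP and hold no hyphen. They are 70 of the 15517 genes measured in both cell lines, and fall by symbol into 12 SNRP, 3 SF3A, 6 SF3B, 4 U2AF, 13 PRPF, 11 SRSF and 21 HNRNP genes. The rule used gene type, symbol and presence in both lines, and was set with earlier results of these data known. Cells of the human lines HL-60 and MOLM-13, both from acute myeloid leukaemia, had been exposed to 1 of 3 agents for 48 h, with 3 replicates in each of the 6 groups and 18 samples in all. The agents were the solvent DMSO, decitabine (DAC, a cytidine analogue that enters DNA and traps DNA methyltransferases there) and NTX-301, an agent directed at the maintenance methyltransferase DNMT1. HL-60 is a promyelocytic line and MOLM-13 a monocytic line that carries a KMT2A fusion; each is a single established line, and no genotype or allele was altered in any group. A concentration of 30 nM is stated for HL-60 and of 15 nM for MOLM-13, in a wording that does not tell whether NTX-301 was used at it too; drug concentration and cell line cannot be told apart. The labels speak of triplicate wells and not of separate cultures, and the p-values therefore measure the spread between these samples, which may be technical.

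Splicing removes introns through a sequence of small nuclear ribonucleoproteins (snRNPs) that assemble on each intron. The SNRP genes encode the Sm proteins, which form a ring on the small nuclear RNAs, and proteins specific to the U1 or U2 particle. U2AF marks the 3′ splice site, the SF3A and SF3B complexes are the parts of U2 that settle it on the branch point, and the PRPF proteins belong mainly to the U4/U6.U5 tri-snRNP and to the steps of activation. SR proteins (SRSF genes) bind exonic enhancers and mostly promote inclusion of exons, and hnRNPs coat nascent RNA and often oppose them. In myeloid neoplasms SF3B1, SRSF2 and U2AF1 are among the genes most often mutated, and PRPF8 is mutated in some cases.

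The members' promoters are shown first, because the motifs they share did not enter the choice of members and divide the symbol groups. RefSeq promoter windows (GRCh38.p14, 250 bases before to 50 after the gene's start) matched 63 of the 70 genes. The E-box CACGTG, which reads the same on both strands, stood in 8 of the 63 windows (12.7%), against 10.4% of the windows of 10526 protein-coding genes in the files and 7.44% of all 27305 windows. Of these 8 windows, 7 belonged to HNRNP genes (7 of 20, 35%) and 1 to an SF3B gene; none of the 11 SNRP or 10 SRSF windows held it. The ETS-type element CCGGAAGT, searched on both strands, stood in 14 of 63 (22.2%), against 8.94% of the protein-coding genes' windows and 4.44% of all windows. It was found in 3 of 3 SF3A, 3 of 5 SF3B and 3 of 11 SNRP windows but in 1 of 20 HNRNP windows. AAGATGGC, the core of the YY1 element, was found in 4 windows (6.35%, against 5.40% of the protein-coding genes' windows) on either strand. None of these motifs contains another. A match is only a description of these letters.

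The upstream 250 bases of 4 members (GRCh38.p14) are printed 5′ to 3′ on the gene's own strand, with E-box and ETS matches in capitals (an ETS match on the opposite strand reads ACTTCCGG). They were picked to show each arrangement: SNRPB (chr20:2470790-2471039, minus strand), an Sm gene, and SF3A3 (chr1:37990023-37990272, minus strand), a U2 gene, have the ETS element only. HNRNPD (chr4:82373992-82374241, minus strand) has both, and HNRNPH3 (chr10:68331443-68331692, plus strand) has the E-box only.
SNRPB: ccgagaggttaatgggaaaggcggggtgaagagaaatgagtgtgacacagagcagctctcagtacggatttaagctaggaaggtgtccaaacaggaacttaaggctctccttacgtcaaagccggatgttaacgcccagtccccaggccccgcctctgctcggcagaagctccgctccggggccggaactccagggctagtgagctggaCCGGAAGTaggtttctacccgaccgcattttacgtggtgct
SF3A3: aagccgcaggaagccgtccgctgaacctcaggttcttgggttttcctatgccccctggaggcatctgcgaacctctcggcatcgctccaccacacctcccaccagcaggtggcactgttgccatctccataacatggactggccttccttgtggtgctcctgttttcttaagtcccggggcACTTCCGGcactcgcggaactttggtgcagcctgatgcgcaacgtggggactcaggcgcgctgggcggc
HNRNPD: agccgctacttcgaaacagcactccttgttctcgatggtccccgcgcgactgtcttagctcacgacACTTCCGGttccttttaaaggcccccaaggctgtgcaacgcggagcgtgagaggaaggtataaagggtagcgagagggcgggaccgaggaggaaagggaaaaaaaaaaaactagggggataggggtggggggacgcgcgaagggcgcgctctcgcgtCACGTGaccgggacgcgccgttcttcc
HNRNPH3: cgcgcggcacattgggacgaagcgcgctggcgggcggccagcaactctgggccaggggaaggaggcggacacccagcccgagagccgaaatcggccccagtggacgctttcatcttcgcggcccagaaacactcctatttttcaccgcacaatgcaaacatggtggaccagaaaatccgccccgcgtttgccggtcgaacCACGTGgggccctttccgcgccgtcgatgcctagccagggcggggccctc

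The deposited values are normalised log2 expression values, 1 per gene and sample, and differences between groups are differences of these log2 values. As a class the members were abundant transcripts. Their mean log2 value over a line's 9 samples ran from 7.42 to 16.04 in HL-60 and from 6.17 to 16.57 in MOLM-13, with medians of 13.19 and 13.08 against 9.54 and 9.82 over all genes. In HL-60 67 of the 70, and in MOLM-13 68, lay above the all-gene median. For 69 genes levels were divided by transcript length, the median of the GENCODE coding transcripts paired with a RefSeq ID of the gene. Per kilobase, the log2 level in DMSO was highest for HNRNPC, which packages nascent transcripts, at 14.99 in HL-60 and 15.46 in MOLM-13. In HL-60, SF3B1 (14.54) and HNRNPA1 (14.52) followed and differed from each other by less than the SD of HNRNPA1 over the 3 DMSO replicates. The place of SF3B1 rests on the transcript taken: its 3 transcripts have a median of 2127 bases, and with the longest (6526 bases) its level was 12.92 in HL-60, 13th in order, and 13.004 in MOLM-13, 20th. In MOLM-13 the next was SNRPB (14.85). PRPF40B, a U1-associated protein, was the lowest per kilobase in both lines. The median SD among 3 replicates was between 0.023 and 0.036 for the members, according to group, and the 95% interval of a difference reached a median of 0.052 to either side in HL-60 and 0.064 in MOLM-13. All 70 genes passed the filter on low values in both lines.

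Markers of the 2 lines were looked at once. The 5 granulocyte precursor genes of the list (MPO, ELANE, AZU1, PRTN3, CTSG) were measured in both lines, and their summed log2 level in HL-60 was 19.00 to 19.09 in DMSO, 18.99 with DAC in all 3 samples and 18.62 to 18.65 with NTX-301. Of 5 monocytic markers 3 were measured (CD14 and FCN1 were not analysed here), and in MOLM-13 their sum was 16.49 to 16.56 in DMSO, 17.27 to 17.38 with DAC and 16.63 to 16.71 with NTX-301. The sums in MOLM-13 did not overlap between DMSO and either drug for the monocytic list, nor those in HL-60 for the granulocytic list. With DAC in HL-60 the gap was narrow, from a lowest DMSO sum of 18.997 to a highest DAC sum of 18.994. There only the mean of MPO, the highest of the 5, was lower with DAC (18.64 against 18.71). The means of ELANE, AZU1, PRTN3 and CTSG were higher with DAC. With NTX-301 the means of all 5 were lower. All 4 markers of KMT2A-rearranged leukaemia on the list, HOXA9 and MEIS1 among them, were measured in MOLM-13, where their sum was 15.61 to 15.68 in DMSO, 15.37 to 15.41 with DAC and 15.49 to 15.50 with NTX-301, both drugs below DMSO without overlap. FLT3 was the highest of the 4. The mean of MEIS1 was higher with NTX-301 (12.67) than in DMSO (12.56), while those of HOXA9, HOXA10 and FLT3 were lower. The part of these markers in the splicing results was not tested. These are bulk RNA samples, in which fewer cells of a type and less RNA per cell cannot be told apart.

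In MOLM-13, most splicing genes were lower with both drugs, and the snRNP proteins had the lowest median. With DAC, 47 of the 70 members were lower and 0 higher than in DMSO at a limma adjusted p under 0.05, and with NTX-301 49 were lower and 2 higher. Over all 17475 genes tested, 21.2% were lower and 15.4% higher with DAC, and 24.8% lower and 20.3% higher with NTX-301; the members' shares of lower calls were 67.1% and 70%. At an unadjusted p under 0.05, limma gave 2 members higher with DAC. The median difference over the 70 was -0.17 with DAC and -0.18 with NTX-301, near 0 over all genes, and single members ran from -0.36 to 0.16 and from -0.39 to 0.12. The DMSO and drug samples did not overlap, with the drug lower, for 47 members with DAC and 52 with NTX-301, where this held for 24.9% and 28.6% of all genes. Both comparisons use the same 3 DMSO samples.

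Abundant genes in general were often lower in MOLM-13 as well. Among the 3893 genes whose values averaged 12 or more on the log2 scale, a minimum chosen after the data were seen, 49.9% were lower with DAC and 55.3% with NTX-301, with medians of -0.080 and -0.098. Of the 57 members at that level, 43 (75.4%) and 46 (80.7%) were lower, with medians of -0.18 and -0.19. When the values of each line were quantile normalised, which gives all samples the same distribution, 36 members were called lower with each drug, and 3 higher with DAC and 8 with NTX-301. Over all genes 17.0% and 21.1% were then lower, and 14.9% and 18.7% higher. Of 159 called values of single members and other splicing genes cited here, over all comparisons, that scaling ended 19 calls and moved 53 values by more than 1.5 times, and centring each sample on its median ended 8 and moved 7.

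**Figure D1:**
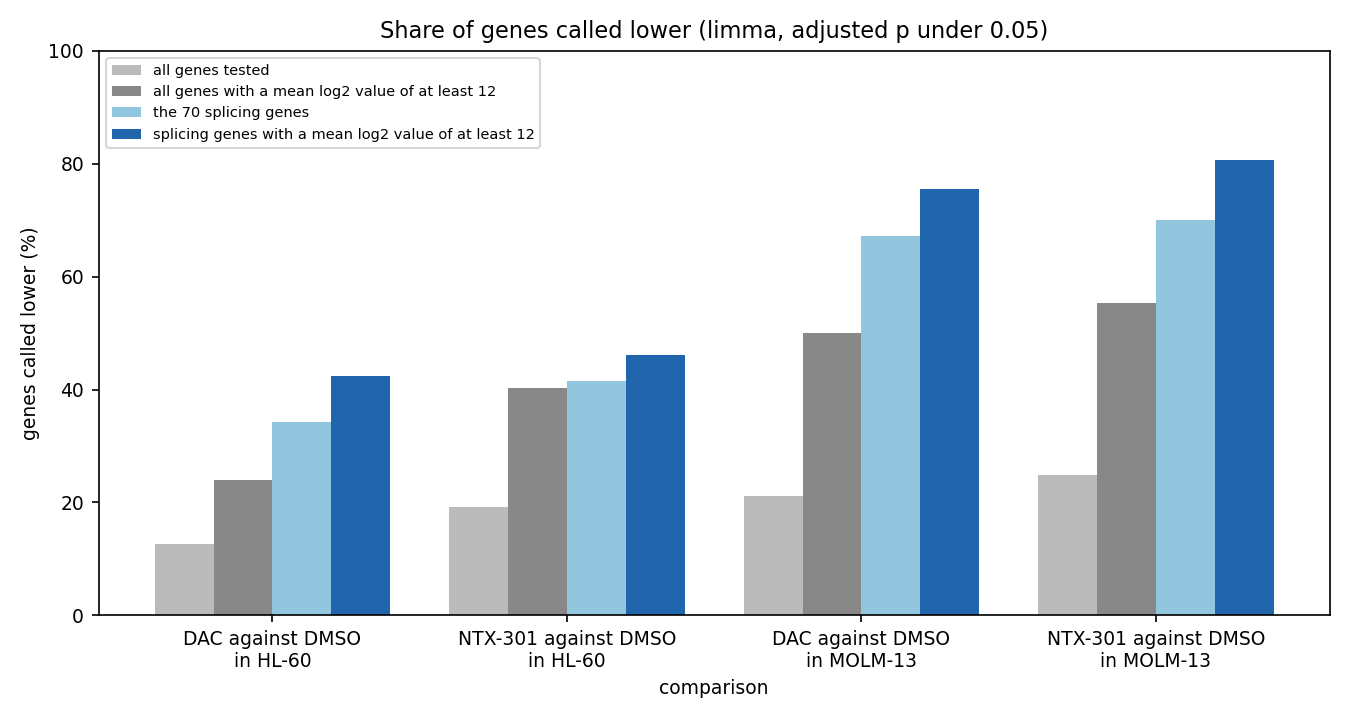
Share of genes called lower (percent, vertical axis, from 0) in each drug comparison for all genes, all genes averaging 12 or more, the 70 splicing members and the members averaging 12 or more. In MOLM-13 the share of the 70 is 67.1% with DAC and 70% with NTX-301, and that of its abundant members 75.4% and 80.7%, above the 49.9% and 55.3% of all abundant genes. In HL-60 under DAC 42.3% of the abundant members are lower and 23.9% of all abundant genes, and under NTX-301 46.2% and 40.3%.

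The SNRP genes had the largest median change in MOLM-13. With each drug 11 of the 12 (91.7%) were lower and 0 higher, against 49.9% (DAC) and 55.3% (NTX-301) of the abundant genes lower. The median difference was -0.27 with DAC and -0.30 with NTX-301 (-0.22 and -0.23 after quantile normalisation). SNRPB, which encodes the Sm proteins B and B′, measured 14.94, 14.98 and 14.97 in the DMSO samples, 14.67, 14.66 and 14.58 with DAC and 14.59, 14.59 and 14.57 with NTX-301. Each of the 6 drug samples lay below every DMSO sample. The fall was 0.32 on the log2 scale with DAC (SE 0.0269, limma adjusted p = 6.52e-06) and 0.38 with NTX-301 (limma adjusted p = 1.37e-06). SNRPG, an Sm ring protein, gave 13.04, 13.19 and 13.14 in DMSO, 12.83, 12.74 and 12.73 with DAC and 12.79, 12.68 and 12.71 with NTX-301. Again no drug sample reached the lowest DMSO sample, and the differences of -0.36 (SE 0.043, limma adjusted p = 7.59e-05) and -0.39 (limma adjusted p = 2.31e-05) were the lowest called among the 70 with either drug. SNRPF, another protein of that ring, gave 11.96, 11.96 and 11.999 in DMSO, 11.62, 11.72 and 11.53 with DAC and 11.74, 11.66 and 11.66 with NTX-301. It too fell without overlap, by 0.35 (limma adjusted p = 7.33e-05) and 0.29 (limma adjusted p = 1.89e-04).

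The remaining Sm genes were lower too in MOLM-13. SNRPD1 went from 13.10, 13.18 and 13.12 to 12.83, 12.81 and 12.77 with DAC and 12.84, 12.74 and 12.77 with NTX-301, a fall of 0.33 (limma adjusted p = 1.81e-05) and 0.35 (limma adjusted p = 7.00e-06). SNRPE went from 12.91, 13.04 and 13.02 to 12.77, 12.72 and 12.64 with DAC and 12.61, 12.65 and 12.63 with NTX-301, a fall of 0.28 with DAC and 0.36 with NTX-301. In neither gene did a drug sample reach the DMSO samples. SNRPD2 and SNRPD3 fell by 0.24 and 0.32 with DAC and by 0.32 and 0.28 with NTX-301. Of the particle-specific proteins, the U1 proteins SNRPA and SNRPC fell by 0.17 and 0.26 with DAC, and the U2 proteins SNRPA1 and SNRPB2 by 0.24 and 0.24, with similar values under NTX-301 (-0.19, -0.33, -0.21 and -0.29 in the same order).

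SNRPN was the 1 SNRP gene not called in MOLM-13 with either drug. It is an imprinted gene that encodes an SmB-like protein and shares its locus with SNURF, so that reads of the 2 genes may not be separable. Its values were the most scattered of the group, at 10.25, 10.48 and 10.66 in DMSO, 10.12, 10.37 and 10.14 with DAC and 10.13, 10.37 and 10.14 with NTX-301, and the groups overlapped. The differences were -0.25 (95% interval, not adjusted for the number of genes, -0.47 to -0.03, limma adjusted p = 0.0673) and -0.25 (-0.47 to -0.03, limma adjusted p = 0.0612). The DAC difference became called without MOLM-13 DMSO replicate 1 (-0.36) or MOLM-13 DAC replicate 2 (-0.33), and the NTX-301 difference without MOLM-13 DMSO replicate 1 (-0.36), MOLM-13 DAC replicate 2 (-0.25) or MOLM-13 NTX-301 replicate 2 (-0.33). Both were also called with each sample centred on its median, at -0.29 (limma adjusted p = 0.0126) with DAC and -0.28 (limma adjusted p = 0.0141) with NTX-301. With the replicate number as a block both were called too (limma adjusted p = 0.0298 and 0.026). So were they with a filter on a mean log2 value of at least 5 (limma adjusted p = 0.0314 and 0.0286).

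**Figure D2:**
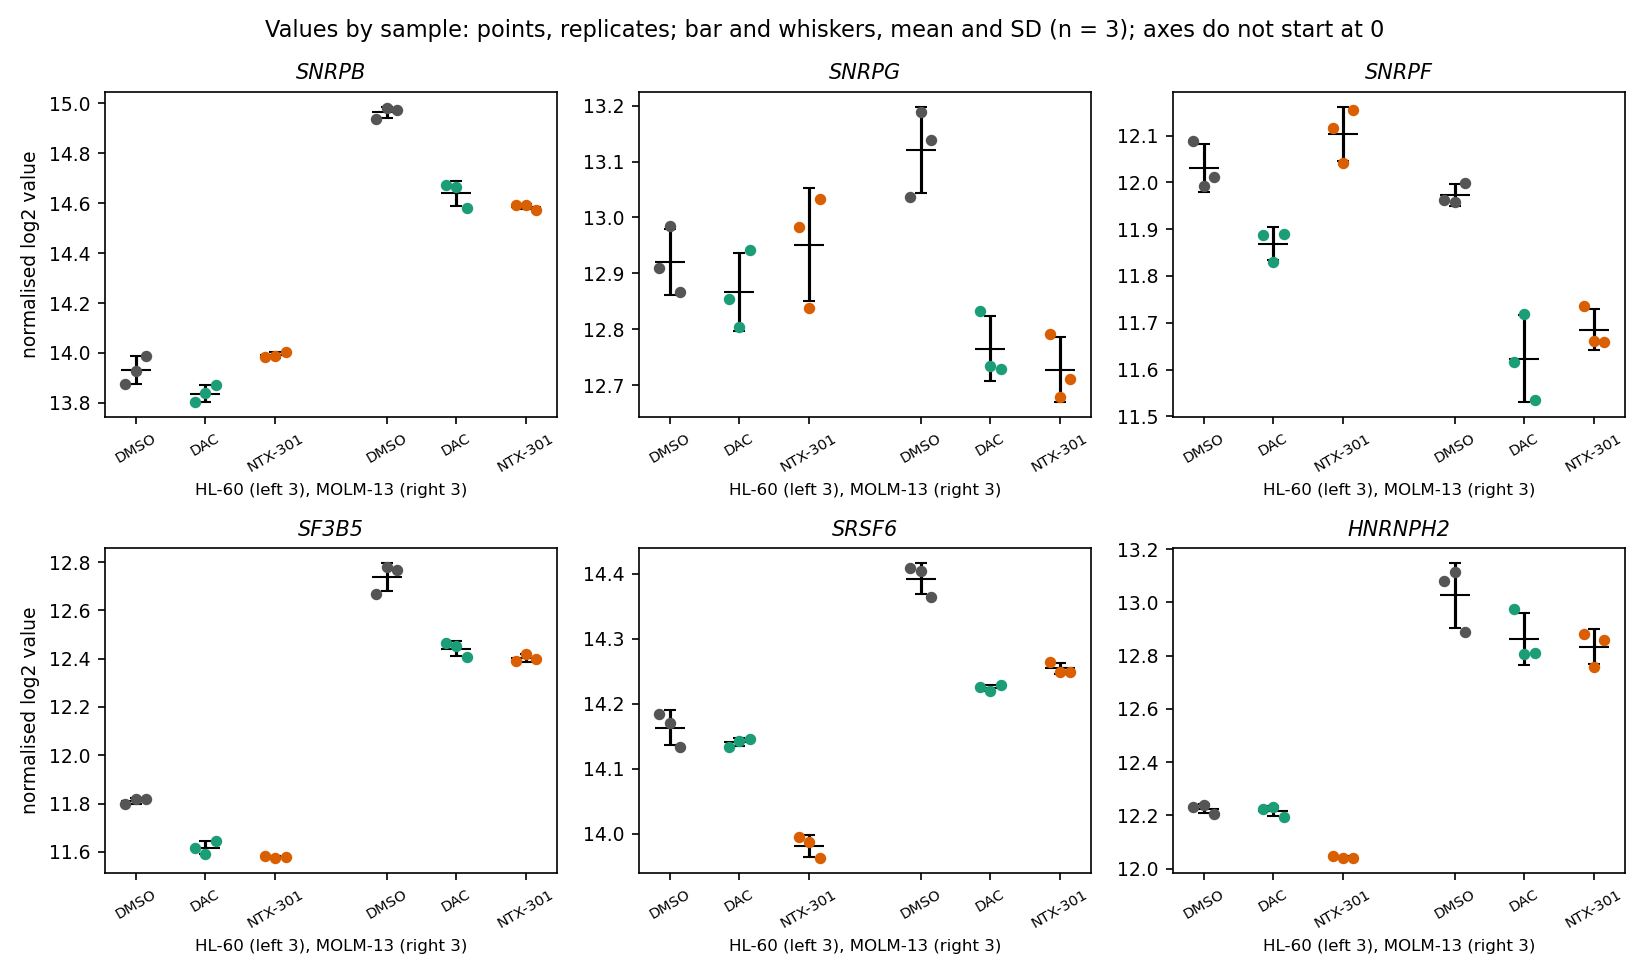
Log2 expression value (vertical axis) of 6 members in each of the 18 samples, by cell line and agent; points are samples, bars the mean with SD of 3 replicates. SNRPB, SNRPG, SNRPF and SF3B5 are lower in all 6 drug samples of MOLM-13 than in its DMSO samples, whereas SRSF6 and HNRNPH2 in HL-60 are lower with NTX-301 and level with DMSO under DAC.

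Among the U2 branch-point proteins, the small SF3B subunits had the largest differences in MOLM-13. Of the 6 SF3B genes 5 (83.3%) were lower with each drug, against 49.9% (DAC) and 55.3% (NTX-301) of the abundant genes. SF3B4 was higher with NTX-301 alone, and the SF3B medians were -0.099 and -0.15. After quantile normalisation 2 were lower with each drug. SF3B5, a small subunit, measured 12.67, 12.78 and 12.77 in DMSO, 12.46, 12.45 and 12.41 with DAC and 12.39, 12.42 and 12.40 with NTX-301, without overlap. Its fall was 0.30 with DAC (SE 0.031, limma adjusted p = 2.86e-05) and 0.34 with NTX-301 (limma adjusted p = 7.20e-06). SF3B6, the branch-point subunit also known as p14, fell by 0.23 and 0.29. SF3B1, the scaffold that is mutated in myeloid neoplasms, moved much less. It read 15.68, 15.74 and 15.71 in DMSO, 15.65, 15.59 and 15.58 with DAC and 15.63, 15.61 and 15.61 with NTX-301, and its fall was 0.10 (limma adjusted p = 0.00824) and 0.09 (limma adjusted p = 0.0119). With NTX-301 the SF3B1 call was lost without MOLM-13 DMSO replicate 2 (-0.08), and both SF3B1 calls were lost after quantile normalisation (-0.041, limma adjusted p = 0.0949 with DAC; -0.015, limma adjusted p = 0.541 with NTX-301). SF3B4 with NTX-301 differed by 0.11 (limma adjusted p = 0.0277), a call lost without MOLM-13 DMSO replicate 2 (0.11), MOLM-13 DMSO replicate 3 (0.09), MOLM-13 NTX-301 replicate 1 (0.10) or MOLM-13 NTX-301 replicate 3 (0.10) and with each sample centred on its median (0.078, limma adjusted p = 0.104).

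The SF3A and U2AF genes split in the same line. SF3A3 fell by 0.23 with DAC (limma adjusted p = 7.43e-05) and 0.28 with NTX-301 (limma adjusted p = 9.45e-06), from 13.70, 13.73 and 13.73 in DMSO to 13.53, 13.49 and 13.46 with DAC and 13.47, 13.39 and 13.44 with NTX-301. No drug sample of SF3A3 overlapped DMSO. SF3A1 (-0.0037 and -0.04) and SF3A2 (0.15 and 0.08) were not called, and the 95% interval of SF3A2 with DAC ran from 0.03 to 0.28. SF3A2 became called with DAC without MOLM-13 DMSO replicate 1 (0.22) or MOLM-13 DAC replicate 1 (0.20) and with NTX-301 without MOLM-13 DMSO replicate 1 (0.14); with DAC it was also called after quantile normalisation (0.18, limma adjusted p = 0.0443). U2AF2, the large subunit that binds the polypyrimidine tract, fell by 0.13 and 0.18 (limma adjusted p = 4.89e-05 with NTX-301), and the DAC call was lost after quantile normalisation (-0.043, limma adjusted p = 0.106). U2AF1, the small subunit, and U2AF1L5, a near-identical copy between which reads could be split, were uncertain for that reason and not called, with differences of -0.06 and -0.05 with DAC and -0.08 and -0.06 with NTX-301. U2AF1L4, a related gene of lower level, differed by 0.11 and 0.09 and was not called.

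The PRPF genes were the large group with the smallest change in MOLM-13. With each drug 7 of 13 (53.8%) were lower, near the 49.9% (DAC) and 55.3% (NTX-301) of the abundant genes. PRPF18 was higher with NTX-301. The medians of -0.072 and -0.075 became 0.015 and 0.0047 after quantile normalisation, when 3 were lower with each drug. The tri-snRNP proteins PRPF3, PRPF4 and PRPF31 fell by 0.20, 0.18 and 0.18 with DAC and by 0.20, 0.25 and 0.18 with NTX-301. PRPF8, the scaffold of the catalytic core, read 15.80, 15.71 and 15.76 in DMSO, 15.73, 15.76 and 15.72 with DAC and 15.70, 15.65 and 15.70 with NTX-301. The DAC samples lay within the DMSO range (-0.02, not called), and the difference of -0.08 with NTX-301 (limma adjusted p = 0.0418) was not called without MOLM-13 DMSO replicate 1 (-0.05), MOLM-13 DMSO replicate 3 (-0.07), MOLM-13 NTX-301 replicate 1 (-0.08), MOLM-13 NTX-301 replicate 2 (-0.06) or MOLM-13 NTX-301 replicate 3 (-0.08) or after quantile normalisation (-0.00075, limma adjusted p = 0.996). PRPF18, a factor of the later catalytic step, was 12.21, 12.25 and 12.22 in DMSO and 12.29, 12.39 and 12.38 with NTX-301, a rise of 0.12 (limma adjusted p = 0.00594) without overlap.

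Of the 11 SR genes, 9 were lower and 0 higher in MOLM-13 with each drug, with medians of -0.18 and -0.24. Their share lower of 81.8% stood against 49.9% (DAC) and 55.3% (NTX-301) of the abundant genes. SRSF1, the prototype SR protein, read 15.59, 15.67 and 15.64 in DMSO, 15.48, 15.43 and 15.45 with DAC and 15.40, 15.40 and 15.38 with NTX-301, and fell by 0.18 (limma adjusted p = 1.99e-04) and 0.24 (limma adjusted p = 1.91e-05). SRSF3, the smallest SR protein, read 15.31, 15.38 and 15.36 in DMSO, 15.13, 15.11 and 15.09 with DAC and 15.12, 15.12 and 15.10 with NTX-301, a fall of 0.24 with each. In both genes all drug samples were below all DMSO samples. SRSF7 fell by 0.28 and 0.30, SRSF10 by 0.27 and 0.26 and SRSF4 by 0.29 and 0.23. SRSF8 and SRSF11 were the 2 SR genes called with neither drug, at 0.04 and 0.08 with NTX-301; SRSF11 became called without MOLM-13 DAC replicate 2 (0.08), MOLM-13 DAC replicate 3 (0.08) or MOLM-13 NTX-301 replicate 1 (0.11) and after quantile normalisation (0.20, limma adjusted p = 0.00118).

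The 21 HNRNP genes included 13 lower with DAC and 15 lower with NTX-301 in MOLM-13, none higher, with medians of -0.17 and -0.16. The shares lower were 61.9% and 71.4%, against 49.9% and 55.3% of the abundant genes. HNRNPC was 15.87, 15.97 and 15.93 in DMSO, 15.72, 15.66 and 15.61 with DAC and 15.68, 15.65 and 15.65 with NTX-301. HNRNPA1, which binds splicing silencers, was 16.31, 16.31 and 16.33 in DMSO, 16.10, 16.10 and 16.07 with DAC and 16.21, 16.13 and 16.17 with NTX-301. HNRNPC fell by 0.26 with either drug, and HNRNPA1 by 0.22 with DAC and 0.15 with NTX-301, without overlap in either gene. After quantile normalisation HNRNPA1 with NTX-301 was not called (-0.051, limma adjusted p = 0.13). For HNRNPA1, 23 pseudogene rows in the MOLM-13 table share much of its sequence, so its value is uncertain. HNRNPF, which binds G-rich elements, fell by 0.35 with NTX-301 (limma adjusted p = 3.84e-06), from 15.17, 15.25 and 15.23 to 14.88, 14.88 and 14.84. HNRNPK, a poly(C)-binding hnRNP, fell by 0.18 and 0.20. HNRNPA2B1, one of the most abundant hnRNPs, was not called, at -0.02 (95% interval -0.10 to 0.06) and -0.04 (-0.12 to 0.04). HNRNPU, which binds nuclear RNA and chromatin, fell by 0.18 and 0.14. Among the 20 HNRNP genes with a promoter window, 2 of the 7 with an E-box were lower with DAC and 4 of the 7 with NTX-301, against 10 of 13 without it under each drug. In HL-60 the split was 1 of 7 against 3 of 13 with DAC and 3 of 7 against 6 of 13 with NTX-301, and NTX-301 was lower than DAC in 2 of 7 against 0 of 13. Over all members with a window in MOLM-13, 3 of 8 with an E-box were lower with DAC and 5 of 8 with NTX-301, against 37 of 55 without it under each drug. For the ETS element 11 of 14 were lower with each drug, against 29 of 49 (DAC) and 31 of 49 (NTX-301) without it. None of these splits was tested.

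**Figure D3:**
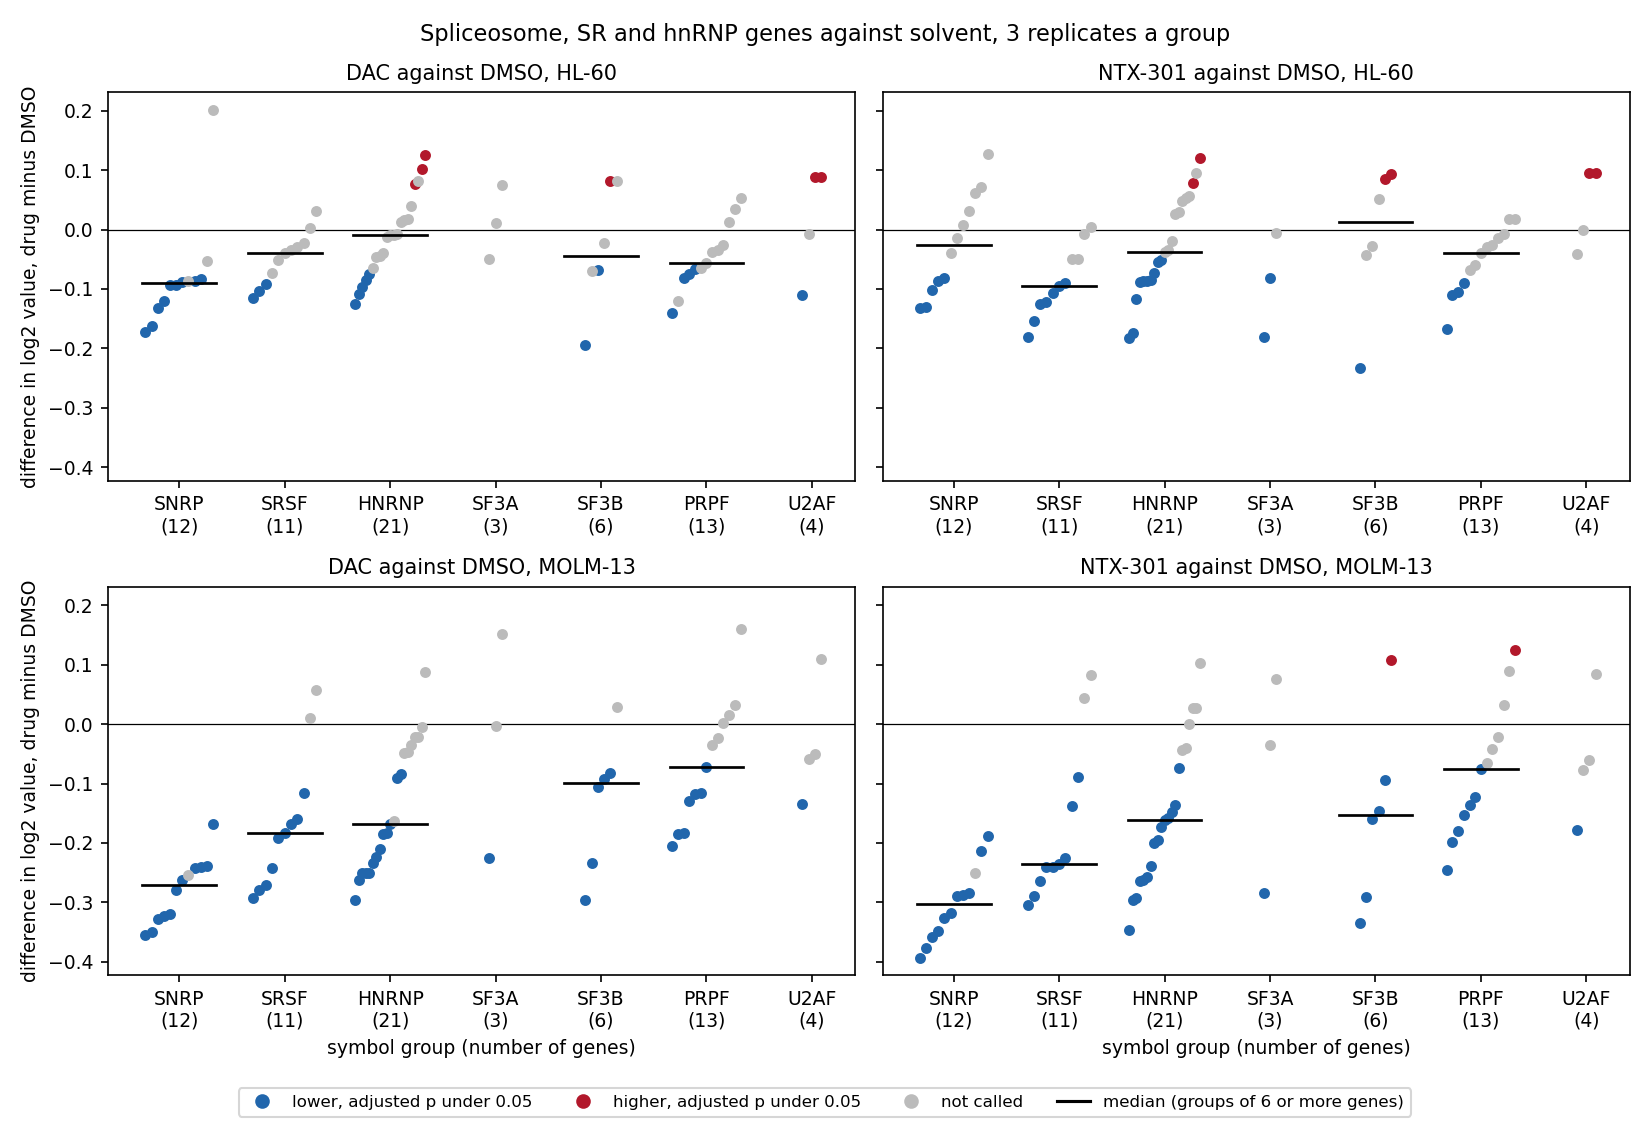
Difference of log2 values from DMSO (vertical axis) for each of the 70 members, by symbol group (horizontal axis), in 4 panels for the 2 lines and 2 drugs; black lines mark the median of groups with 6 or more genes. Of the groups with a median line, in MOLM-13 the SNRP genes lie lowest (medians -0.27 and -0.30) and the PRPF genes nearest 0, and in HL-60 every line lies within 0.1 of 0.

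In HL-60 the median change was smaller, and the counts per symbol group were not alike for the 2 drugs. DAC left 24 members lower and 6 higher than DMSO, and NTX-301 29 lower and 6 higher. Over all 17046 genes tested in HL-60, 12.6% were lower and 11.6% higher with DAC, and 19.2% lower and 18.3% higher with NTX-301. Of the members, 34.3% and 41.4% were lower. The median over the members was -0.045 with DAC and -0.040 with NTX-301, with single values from -0.19 to 0.20 and from -0.23 to 0.13. Among the 3390 abundant genes (mean log2 of 12 or more), the share lower was 23.9% with DAC and 40.3% with NTX-301; of the 52 members at that level it was 42.3% and 46.2%. The split of calls moved with the scaling. For DAC it was 20 lower and 10 higher after quantile normalisation, against 11.5% and 10.8% of all genes. For NTX-301 it was 38 lower and 1 higher when each sample was centred on its median. That scaling shifted the all-gene median to -0.031, with 35.5% of all genes lower and 13.3% higher. After quantile normalisation the NTX-301 split was 19 lower and 12 higher, against 19.1% and 17.2% of all genes. Both drugs were set against the same 3 DMSO samples.

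Under DAC, the snRNP proteins again had the lowest median of the large groups in HL-60 (-0.090), with 9 of 12 lower and 0 higher. Under NTX-301, 5 of 12 were lower and the median was -0.027 (0.0047 after quantile normalisation). The share lower with DAC, 75%, stood against 12.6% of all genes and 23.9% of the abundant genes. With NTX-301 it was 41.7%, against 19.2% of all genes and near the 40.3% of the abundant genes. SNRPF read 12.09, 11.99 and 12.01 in DMSO, 11.89, 11.83 and 11.89 with DAC and 12.12, 12.04 and 12.15 with NTX-301. Its DAC samples lay below all others, a fall of 0.16 (SE 0.0333, limma adjusted p = 0.00302), while the NTX-301 samples overlapped DMSO (0.07, limma adjusted p = 0.108, called without HL-60 DMSO replicate 1 (0.10) or HL-60 NTX-301 replicate 2 (0.10)). SNRPB2 fell by 0.17 with DAC (limma adjusted p = 3.02e-04) and 0.10 with NTX-301 (limma adjusted p = 0.00675), from 12.15, 12.18 and 12.13 in DMSO to 11.97, 11.95 and 12.02 with DAC and 12.04, 12.03 and 12.09 with NTX-301. SNRPD1 fell by 0.13 with each drug, from 13.43, 13.46 and 13.45 to 13.30, 13.29 and 13.35 with DAC and 13.31, 13.28 and 13.35 with NTX-301. In both genes no drug sample overlapped DMSO. SNRPB was 13.88, 13.93 and 13.99 in DMSO, 13.80, 13.84 and 13.87 with DAC and 13.98, 13.99 and 14.01 with NTX-301, its highest DAC sample just under the lowest DMSO sample. The DAC difference of -0.09 (limma adjusted p = 0.0211) was not called without HL-60 DMSO replicate 2 (-0.09), HL-60 DMSO replicate 3 (-0.06), HL-60 DAC replicate 1 (-0.08) or HL-60 DAC replicate 2 (-0.09), and the NTX-301 difference of 0.06 (limma adjusted p = 0.0847) was called without HL-60 DMSO replicate 3 (0.09) and after quantile normalisation (0.10, limma adjusted p = 0.0228). SNRPG (12.91, 12.98 and 12.87 in DMSO) was not called with DAC (-0.05, 95% interval -0.15 to 0.05) or NTX-301 (0.03, -0.07 to 0.13). SNRPN rested at 8.60, 8.79 and 8.63 in DMSO and 9.01, 8.90 and 8.71 with DAC, and its difference of 0.20, the highest of the 70, was not called (limma adjusted p = 0.0728). It was called without HL-60 DMSO replicate 2 (0.26), HL-60 DAC replicate 3 (0.28) or HL-60 NTX-301 replicate 3 (0.20), and with each sample centred on its median (0.20, limma adjusted p = 0.0421). It was also called with the replicate number as a block (limma adjusted p = 0.0286) and with a filter on a mean log2 value of at least 5 (limma adjusted p = 0.0441).

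SF3B5 had the lowest difference of the 70 in HL-60 with each drug. It read 11.80, 11.82 and 11.82 in DMSO, 11.62, 11.59 and 11.64 with DAC and 11.58, 11.57 and 11.58 with NTX-301, a fall of 0.19 (SE 0.0232, limma adjusted p = 4.17e-05) and 0.23 (limma adjusted p = 2.65e-06) without overlap. The other SF3B genes went both ways. SF3B2 differed by 0.08 with DAC (limma adjusted p = 0.0171), not called without HL-60 DMSO replicate 2 (0.07) or HL-60 DAC replicate 3 (0.08), and SF3B3, a large structural subunit, rose by 0.09 with NTX-301 (limma adjusted p = 0.00111), from 14.90, 14.90 and 14.88 to 14.96, 14.99 and 15.01. SF3B1 differed by -0.07 with DAC (limma adjusted p = 0.0287, a call lost without HL-60 DMSO replicate 1 (-0.06), HL-60 DMSO replicate 2 (-0.06), HL-60 DAC replicate 1 (-0.07) or HL-60 DAC replicate 2 (-0.05), and after quantile normalisation at -0.018, limma adjusted p = 0.385). With NTX-301 it differed by -0.04, not called, but called with each sample centred on its median (-0.075, limma adjusted p = 0.00743) and 0.030 after quantile normalisation. SF3A3 was 13.70, 13.69 and 13.69 in DMSO, 13.65, 13.61 and 13.66 with DAC and 13.50, 13.52 and 13.52 with NTX-301, where it fell by 0.18 (SE 0.0198, limma adjusted p = 6.56e-06). SF3A1 fell by 0.08 with NTX-301 (limma adjusted p = 0.00872), a call lost after quantile normalisation (-0.045, limma adjusted p = 0.08), and SF3A2 was not called with either drug. No SF3A gene was called with DAC, except SF3A3 after quantile normalisation (-0.05, limma adjusted p = 0.0389).

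U2AF2 was called lower and U2AF1 higher with DAC in HL-60. U2AF2 was 13.55, 13.53 and 13.61 in DMSO, 13.47, 13.45 and 13.44 with DAC and 13.54, 13.56 and 13.59 with NTX-301, a fall of 0.11 with DAC (limma adjusted p = 0.00402) and no call with NTX-301 (95% interval -0.05 to 0.05). U2AF1 was 10.94, 10.85 and 10.90 in DMSO, 11.001, 10.99 and 10.98 with DAC and 11.01, 10.9996 and 10.98 with NTX-301, and U2AF1L5 had nearly the same differences. The U2AF1 difference of 0.09 with DAC (limma adjusted p = 0.0348) was not called without HL-60 DMSO replicate 2 (0.06), HL-60 DMSO replicate 3 (0.09), HL-60 DAC replicate 1 (0.08), HL-60 DAC replicate 2 (0.09) or HL-60 DAC replicate 3 (0.09), nor that of 0.09 with NTX-301 (limma adjusted p = 0.0173) without HL-60 DMSO replicate 2 (0.07), HL-60 NTX-301 replicate 1 (0.09) or HL-60 NTX-301 replicate 2 (0.09) or with each sample centred on its median (0.063, limma adjusted p = 0.0945).

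The PRPF genes had 4 lower and 0 higher with each drug in HL-60. That share of 30.8% stood against 12.6% (DAC) and 19.2% (NTX-301) of all genes and 23.9% and 40.3% of the abundant genes. PRPF8 was 14.81, 14.81 and 14.82 in DMSO, 14.73, 14.73 and 14.75 with DAC and 14.63, 14.65 and 14.65 with NTX-301, 3 levels without overlap. It fell by 0.08 (limma adjusted p = 0.0054) and 0.17 (SE 0.017, limma adjusted p = 3.06e-06). PRPF31, a tri-snRNP bridging protein mutated in retinitis pigmentosa, fell by 0.14 with DAC (limma adjusted p = 0.00394), from 12.53, 12.49 and 12.54 to 12.38, 12.35 and 12.40, and was 12.42, 12.49 and 12.56 with NTX-301, overlapping DMSO.

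The SR genes showed the reverse order of drugs in HL-60, with 7 of 11 lower under NTX-301 (median -0.095) and 3 under DAC (median -0.039), none higher. The shares lower were 63.6% with NTX-301 and 27.3% with DAC, against 40.3% and 23.9% of the abundant genes. SRSF6, a regulator of exon inclusion, read 14.19, 14.17 and 14.13 in DMSO, 14.13, 14.14 and 14.15 with DAC and 13.995, 13.99 and 13.96 with NTX-301. The DAC samples overlapped DMSO and the NTX-301 samples lay below both, with a fall of 0.18 (SE 0.0194, limma adjusted p = 5.17e-06). SRSF8 fell by 0.15, SRSF10 by 0.13, SRSF3 by 0.12 and SRSF1 by 0.09 with NTX-301, the SRSF1 call being lost after quantile normalisation (-0.028, limma adjusted p = 0.161). SRSF7 and SRSF10 fell with both drugs (with DAC by 0.12 and 0.09). SRSF2, mutated in myeloid neoplasms, read 14.55, 14.58 and 14.59 in DMSO and was not called with DAC (-0.05, limma adjusted p = 0.102) or NTX-301 (-0.05, limma adjusted p = 0.0791), the latter becoming called without HL-60 NTX-301 replicate 3 (-0.07) and with each sample centred on its median (-0.082, limma adjusted p = 0.00351).

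Among the 21 HNRNP genes of HL-60, 5 were lower and 3 higher with DAC (median -0.0093, and 0.0034 after quantile normalisation), and 10 were lower and 2 higher with NTX-301 (median -0.038). The shares lower, 23.8% and 47.6%, stood against 12.6% and 19.2% of all genes and 23.9% and 40.3% of the abundant genes. The shares higher, 14.3% and 9.52%, stood against 11.6% and 18.3% of all genes. HNRNPH2 gave 12.23, 12.24 and 12.21 in DMSO, 12.22, 12.23 and 12.19 with DAC and 12.05, 12.04 and 12.04 with NTX-301. The 3 NTX-301 samples were the lowest, a fall of 0.18 (limma adjusted p = 1.39e-05). HNRNPA3 fell by 0.17 with NTX-301 (limma adjusted p = 5.51e-04), from 14.69, 14.62 and 14.57 to 14.49, 14.48 and 14.39. HNRNPDL and HNRNPC fell with DAC by 0.13 and 0.11. Among the genes above DMSO with DAC were HNRNPUL2 (0.13, limma adjusted p = 0.0206) and HNRNPA2B1 (0.10, limma adjusted p = 0.0141). The HNRNPUL2 call was lost without HL-60 DMSO replicate 2 (0.13), HL-60 DMSO replicate 3 (0.10), HL-60 DAC replicate 1 (0.12) or HL-60 DAC replicate 2 (0.11), and that of HNRNPA2B1 without HL-60 DMSO replicate 3 (0.07) or HL-60 DAC replicate 2 (0.09). HNRNPH3 with NTX-301 (0.12, limma adjusted p = 0.0241) was not called without HL-60 DMSO replicate 3 (0.08), HL-60 NTX-301 replicate 1 (0.12) or HL-60 NTX-301 replicate 2 (0.09) or with each sample centred on its median (0.089, limma adjusted p = 0.0665). HNRNPLL, a regulator of CD45 splicing, was above DMSO by 0.08 with DAC, not called without HL-60 DMSO replicate 2 (0.07), HL-60 DMSO replicate 3 (0.06), HL-60 DAC replicate 1 (0.08), HL-60 DAC replicate 2 (0.08), HL-60 DAC replicate 3 (0.07) or HL-60 NTX-301 replicate 2 (0.08). With NTX-301 it was above DMSO by 0.08, not called without HL-60 DMSO replicate 2 (0.07), HL-60 DMSO replicate 3 (0.06) or HL-60 NTX-301 replicate 1 (0.06) or with each sample centred on its median (0.046, limma adjusted p = 0.186).

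Seen over all 4 comparisons with DMSO, 14 members were lower in each, where 3.55% of all genes were. Among them SNRPB2, SNRPD1, SF3B5, SRSF7 and SRSF10 lost none of their calls over the 68 refits of each gene with another scaling, filter, offset, model or set of samples. HNRNPA1, HNRNPC and HNRNPK were also among the 14, with weaker calls in HL-60: HNRNPA1 with DAC (-0.08) was lost without HL-60 DMSO replicate 2 (-0.07) or HL-60 DAC replicate 1 (-0.07), HNRNPC with NTX-301 (-0.08) without HL-60 DMSO replicate 2 (-0.08) or HL-60 NTX-301 replicate 1 (-0.07), and HNRNPK with NTX-301 (-0.05) without HL-60 DMSO replicate 1 (-0.05), HL-60 DMSO replicate 2 (-0.05), HL-60 NTX-301 replicate 1 (-0.05) or HL-60 NTX-301 replicate 2 (-0.05). After quantile normalisation HNRNPA1 (-0.04, limma adjusted p = 0.119) and HNRNPK (-0.032, limma adjusted p = 0.119) were not called with DAC, nor HNRNPC (-0.0021, limma adjusted p = 0.939) and HNRNPK (-0.0024, limma adjusted p = 0.919) with NTX-301. A further 7 members were called in none of the 4, where 30.5% of all genes were not. In MOLM-13 45 members were lower with both drugs, against 18.5% of all genes, and in HL-60 15, against 7.51%. The comparisons within a line share their DMSO samples, and these counts are descriptions. They are not matched by level, as the abundant genes' share over several comparisons together was not taken. In each comparison alone abundant genes were lower more often than all genes (23.9% and 40.3% in HL-60, 49.9% and 55.3% in MOLM-13, DAC first).

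The drugs were then compared directly in each line. Both act on DNA methyltransferases, and how NTX-301 differs in structure from DAC is not given in the sources used here. All 70 members were compared in each line, with p-values adjusted over all genes. In HL-60, NTX-301 left 10 members lower and 8 higher than DAC, where 15.0% of all genes were lower and 15.4% higher, so that the members' shares did not exceed the background. Their median difference was 0.0004. Among the 3390 abundant genes 30.9% were lower and 18.9% higher, against 17.3% and 15.4% of the 52 members at that level. After centring on each sample's median the split was 27 lower and 6 higher, where 33.8% of all genes were lower and 10.2% higher. That scaling shifted the all-gene median to -0.034. After quantile normalisation the split was 9 lower and 18 higher, against 14.6% and 15.4% of all genes.

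The SNRP genes gave 4 higher (33.3%) and 0 lower with NTX-301 than with DAC in HL-60, and the SRSF genes 5 lower (45.5%) and 1 higher. Over all genes 15.4% were higher and 15.0% lower, and among the abundant genes 18.9% and 30.9%. With each sample centred on its median the SNRP split was 2 higher and 1 lower, and after quantile normalisation the SRSF split was 3 lower and 2 higher. SNRPF was 0.23 higher (limma adjusted p = 1.16e-04) and SNRPB 0.16 higher (SE 0.0267, limma adjusted p = 5.50e-04), and in both genes the 3 NTX-301 samples lay above the 3 DAC samples given above. SNRPC (0.09, limma adjusted p = 0.0198) and SNRPE (0.08, limma adjusted p = 0.0334) were the others. The SNRPC call was lost without HL-60 DAC replicate 1 (0.09), HL-60 DAC replicate 2 (0.07) or HL-60 NTX-301 replicate 3 (0.08), and that of SNRPE without any 1 of the 6 samples compared except DAC replicate 3 (0.07 to 0.09). With each sample centred on its median neither was called (0.057, limma adjusted p = 0.109 for SNRPC; 0.047, limma adjusted p = 0.196 for SNRPE). SF3B3 (0.12, limma adjusted p = 2.97e-04), U2AF2 (0.11, limma adjusted p = 0.00289), SRSF5 (0.11) and PRPF31 (0.11, limma adjusted p = 0.0122) were also higher with NTX-301, PRPF31 not without HL-60 NTX-301 replicate 3 (0.08). On the lower side, HNRNPA3 differed by -0.19 (limma adjusted p = 3.94e-04), HNRNPH2 by -0.17 (limma adjusted p = 3.71e-05), SRSF6 by -0.16 (limma adjusted p = 2.99e-05) and SF3A3 by -0.13 (limma adjusted p = 1.93e-04). HNRNPA3 read 14.62, 14.68 and 14.63 with DAC and 14.49, 14.48 and 14.39 with NTX-301. SF3A1, SRSF1, SRSF3, SRSF8, SRSF11 and PRPF8 were lower by 0.09, 0.06, 0.08, 0.12, 0.10 and 0.09. The SRSF1 call was lost without HL-60 DAC replicate 2 (-0.05), HL-60 DAC replicate 3 (-0.05) or HL-60 NTX-301 replicate 1 (-0.05), and that of SRSF3 without HL-60 DAC replicate 2 (-0.07), HL-60 DAC replicate 3 (-0.07) or HL-60 NTX-301 replicate 1 (-0.08). After quantile normalisation neither was called (-0.016, limma adjusted p = 0.459 for SRSF1; -0.036, limma adjusted p = 0.242 for SRSF3).

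In MOLM-13 the drugs differed in few genes. NTX-301 left 3 members lower and 0 higher than DAC, against 4.41% and 3.01% of all genes; limma gave 6 members higher at an unadjusted p under 0.05, and after quantile normalisation the split was 4 lower and 2 higher. HNRNPLL read 12.63, 12.60 and 12.63 with DAC and 12.51, 12.51 and 12.44 with NTX-301, lower by 0.14 (SE 0.0265, limma adjusted p = 0.0111), and the call was lost without MOLM-13 NTX-301 replicate 3 (-0.11). SRSF2 read 14.44, 14.46 and 14.47 with DAC and 14.34, 14.35 and 14.32 with NTX-301, against 14.56, 14.59 and 14.56 in DMSO. The NTX-301 samples were the lowest of the 9, 0.12 below DAC (SE 0.0213, limma adjusted p = 0.00795). SRSF9 was lower by 0.10 (limma adjusted p = 0.0372), a call lost without MOLM-13 DMSO replicate 3 (-0.10), MOLM-13 DAC replicate 1 (-0.08), MOLM-13 DAC replicate 3 (-0.10), MOLM-13 NTX-301 replicate 2 (-0.09) or MOLM-13 NTX-301 replicate 3 (-0.10) and with each sample centred on its median (-0.092, limma adjusted p = 0.074). For the 67 members not called, the 95% intervals of the difference all lay between -0.23 and 0.22, and in HL-60 those of the 52 members not called lay between -0.24 and 0.18. For SNRPB in MOLM-13 the interval was -0.11 to 0.0044 and for SNRPG -0.13 to 0.06.

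**Figure D4:**
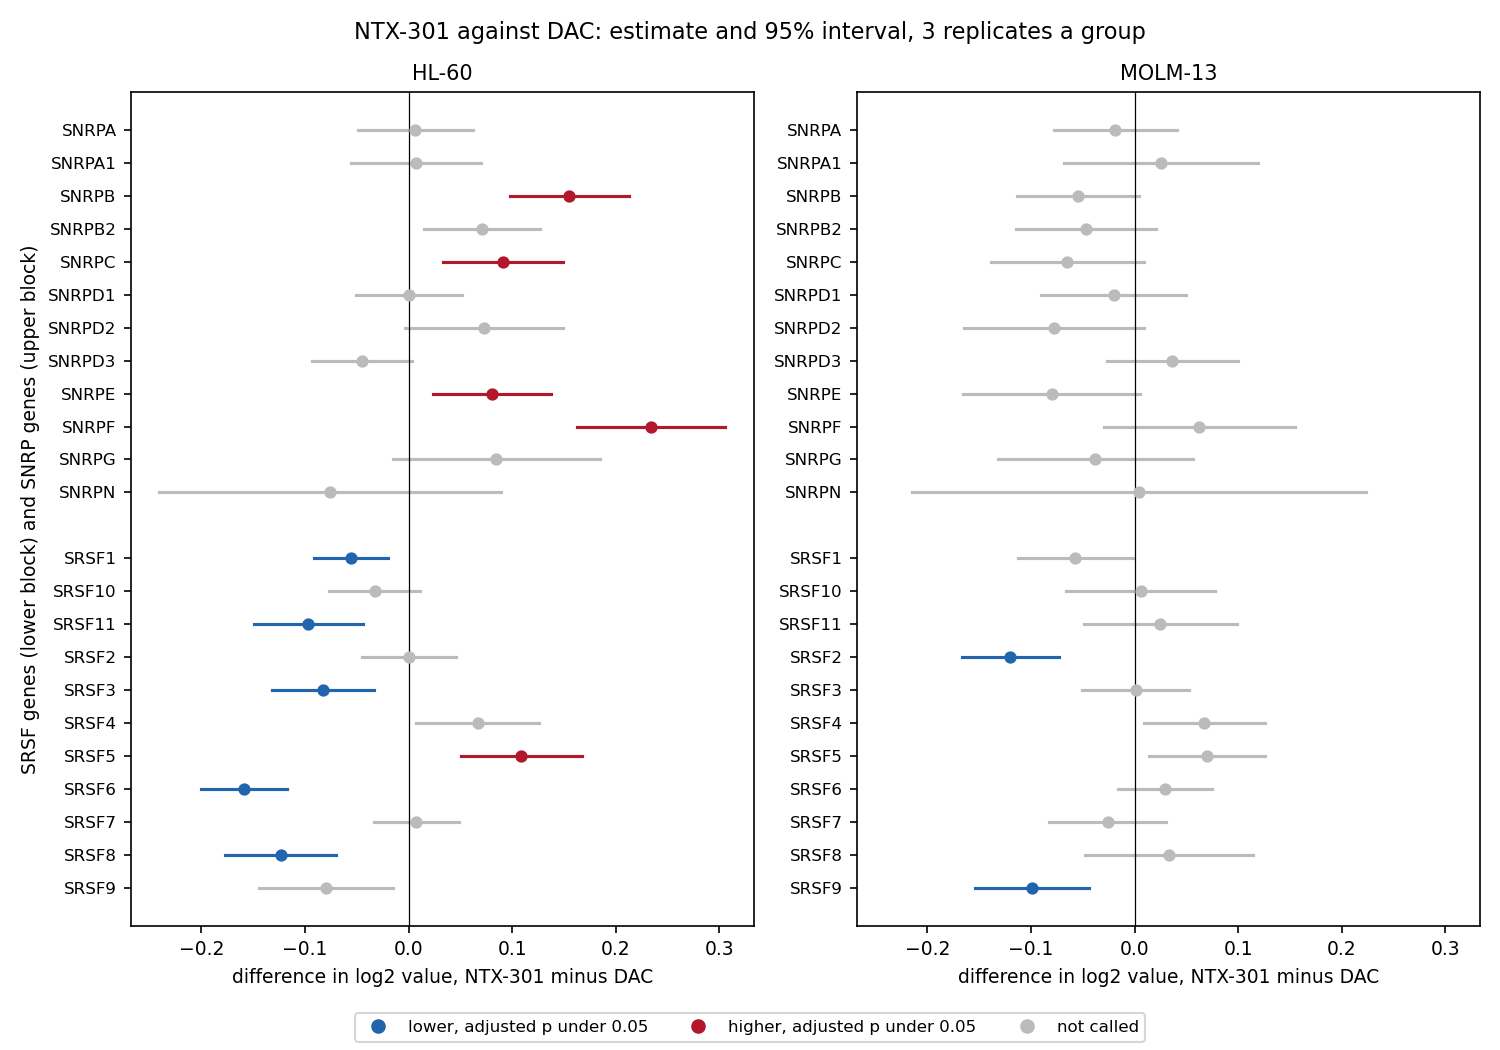
Difference of log2 values between NTX-301 and DAC (horizontal axis) with 95% intervals for the 12 SNRP and 11 SRSF genes in HL-60 and MOLM-13. In HL-60 SNRPF (0.23) and SNRPB (0.16) lie above 0 and SRSF6 (-0.16) below it, while in MOLM-13 most intervals include 0.

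The difference between the lines was tested as an interaction term over all 18 samples, the effect of a drug in MOLM-13 less its effect in HL-60. For DAC 37 members had a lower effect in MOLM-13 and 1 a higher one, where 17.9% of the 15474 genes tested were lower and 12.1% higher. The split was 21 and 4 after quantile normalisation. For NTX-301 the counts were 43 lower and 6 higher, against 22.4% and 17.6% of all genes. The stated concentration differs between the lines, and so do their levels: SNRPB was already about 1 log2 unit higher in the DMSO samples of MOLM-13, in tables whose scaling across the lines is not given in the sources used here.

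The SNRP genes had the lowest medians of the large groups in these differences. For NTX-301, 11 of the 12 SNRP genes had the lower effect in MOLM-13 (all but SNRPA1), with a median of -0.31, and for DAC 9 of 12, with a median of -0.18. The SNRPB effects of NTX-301 were -0.38 in MOLM-13 and 0.06 in HL-60, a difference of -0.44 (SE 0.039, limma adjusted p = 5.72e-08). SNRPG differed by -0.42 for NTX-301 (limma adjusted p = 9.58e-05) and -0.30 for DAC (SE 0.0706, limma adjusted p = 0.0031), and SNRPD3 by -0.23 for DAC (limma adjusted p = 8.02e-05). SNRPN differed by -0.46 for DAC (limma adjusted p = 0.0202), not called without HL-60 DMSO replicate 1 (-0.42), HL-60 DAC replicate 1 (-0.39) or MOLM-13 DMSO replicate 3 (-0.36). For NTX-301 the SNRPN difference was -0.38 (limma adjusted p = 0.0413), not called without HL-60 DMSO replicate 1 (-0.34), HL-60 DMSO replicate 3 (-0.35), HL-60 NTX-301 replicate 1 (-0.32), HL-60 NTX-301 replicate 2 (-0.37), MOLM-13 DMSO replicate 2 (-0.37), MOLM-13 DMSO replicate 3 (-0.28), MOLM-13 NTX-301 replicate 1 (-0.33) or MOLM-13 NTX-301 replicate 3 (-0.34) or after quantile normalisation (-0.32, limma adjusted p = 0.0916).

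A few SR and PRPF genes went the other way. For NTX-301, SRSF8 (0.20, limma adjusted p = 0.00132), PRPF18 (0.19, limma adjusted p = 0.00136) and SRSF11 (0.18, limma adjusted p = 0.003) had the higher effect in MOLM-13. SRSF8 was 11.79, 11.75 and 11.80 in HL-60 DMSO and 11.60, 11.63 and 11.64 with NTX-301, and in MOLM-13 it was 11.17, 11.20 and 11.14 in DMSO and 11.23, 11.25 and 11.16 with NTX-301. It was thus lower without overlap in HL-60, and in MOLM-13 the NTX-301 samples reached into the DMSO range. HNRNPA3, PRPF8 and PRPF38B were the remaining 3, with differences of 0.13, 0.09 and 0.14; PRPF8 was not called without HL-60 NTX-301 replicate 1 (0.09), MOLM-13 DMSO replicate 2 (0.07), MOLM-13 NTX-301 replicate 1 (0.08) or MOLM-13 NTX-301 replicate 3 (0.08). For DAC, PRPF40B was the 1 gene with a higher effect in MOLM-13 (0.28, SE 0.0857, limma adjusted p = 0.0185), and it was called within neither line (-0.12 in HL-60 and 0.16 in MOLM-13). In HL-60 it became called without HL-60 DMSO replicate 1 (-0.15) or HL-60 NTX-301 replicate 3 (-0.12), after quantile normalisation (-0.17, limma adjusted p = 0.0148) and with each sample centred on its median (-0.12, limma adjusted p = 0.0465), and in MOLM-13 without MOLM-13 DAC replicate 3 (0.22). SRSF6 differed between the lines for DAC (-0.14) and was not called for NTX-301 (0.04, 95% interval -0.01 to 0.10). After quantile normalisation this turned round, with no call for DAC (-0.052, limma adjusted p = 0.119) and a call for NTX-301 (0.12, limma adjusted p = 9.96e-04). With the same drug, 3 members were called higher in HL-60 and lower in MOLM-13, SF3B2 with DAC and SF3B3 and HNRNPLL with NTX-301, named after their values were seen. After quantile normalisation the MOLM-13 values of SF3B2 (0.015, limma adjusted p = 0.69) and SF3B3 (-0.015, limma adjusted p = 0.469) were not called.

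**Figure D5:**
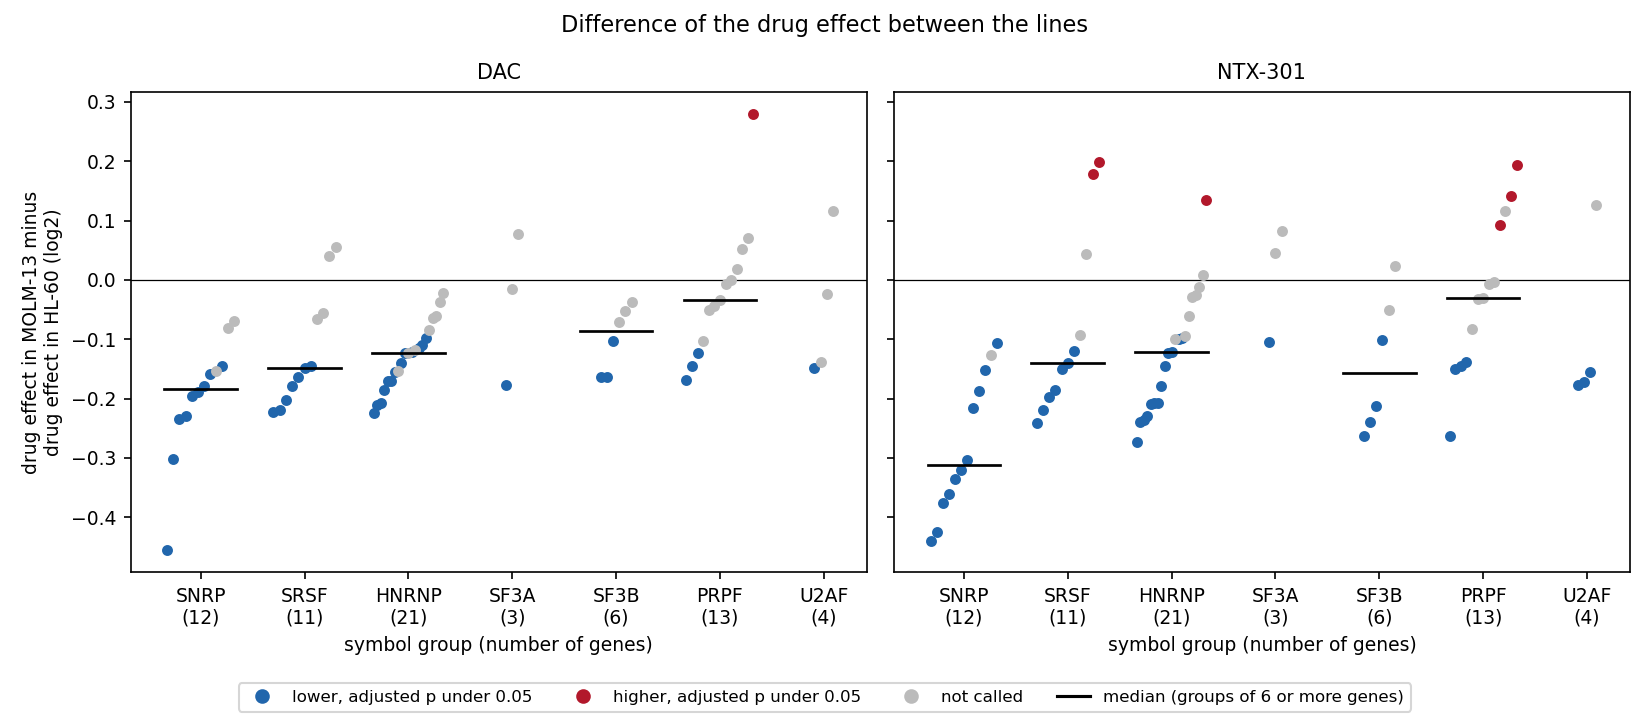
Effect of each drug in MOLM-13 less its effect in HL-60, as a difference of log2 differences (vertical axis), for the 70 members by symbol group and drug. Most points lie below 0, lowest for the SNRP genes under NTX-301 (median -0.31), while SRSF8, PRPF18 and SRSF11 lie above 0.

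A pair of properties outside the rule were set beside the differences over the 69 members with a transcript length, as descriptions over genes of the same libraries. In MOLM-13 the difference from DMSO was higher at greater log2 length (Pearson r of 0.29 with each drug, Spearman rho 0.34 with DAC and 0.33 with NTX-301), the shorter transcripts having the larger falls. In HL-60 the difference between NTX-301 and DAC was lower at greater length (r = -0.37, rho = -0.39). The SNRP transcripts are the shorter ones, with a median of 1081 bases against 2387 over the members. In MOLM-13 the difference from DMSO was also lower at higher mean level (r = -0.39 with DAC and -0.36 with NTX-301). The parts of length and level in the results were not tested.

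The rest of the splicing machinery was followed through 176 further genes measured in both lines, in 8 lists by role. In MOLM-13, 114 of the 176 were lower and 4 higher with DAC, and 108 lower and 13 higher with NTX-301, with medians of -0.12 and -0.13. The shares lower were 64.8% and 61.4%, against 21.2% and 24.8% of all genes and 49.9% and 55.3% of the abundant genes. The 176 genes were not matched to either by level. In HL-60 the counts were 53 lower and 9 higher with DAC, and 64 lower and 11 higher with NTX-301, with medians of -0.050 and -0.035. There the shares lower were 30.1% and 36.4%, against 12.6% and 19.2% of all genes and 23.9% and 40.3% of the abundant genes. NTX-301 against DAC gave 35 lower (19.9%) and 28 higher (15.9%) in HL-60, near the 15.0% and 15.4% of all genes, and 11 lower (6.25%) and 4 higher (2.27%) in MOLM-13, near the 4.41% and 3.01%. Lists close to the Sm proteins by role were largely lower in MOLM-13: in the SMN complex, which loads the Sm ring onto RNA, 15 of 16 genes were lower with each drug, and among 22 snRNP proteins outside the symbol rule 17 were lower with each. Of 14 LSM family genes, which include the LSM ring subunits and others such as LSM14B, 10 were lower with DAC and 11 with NTX-301, and of 30 Prp19 complex and catalytic factors 24 and 23. Of 14 helicases 12 and 10 were lower, so that high shares were not particular to the lists close to the Sm proteins. In the 27 other SR-like genes 12 were lower and 2 higher with DAC, and 9 lower and 6 higher with NTX-301. Among 43 other RNA-binding regulators 18 were lower with each drug, with 2 and 5 higher, and of 10 SR protein kinases and phosphatases 6 and 5 were lower.

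In HL-60, 12.6% of all genes were lower with DAC and 19.2% with NTX-301, and of the abundant genes 23.9% and 40.3%. The lists' lower calls are given in the same order of drugs. They numbered 9 and 11 of 22 for the other snRNP proteins, 5 and 3 of 14 for the LSM family, 7 and 4 of 16 for the SMN complex, 6 and 4 of 14 for the helicases and 9 and 4 of 30 for the Prp19 group. For the SR-like genes they numbered 8 and 14 of 27, for the kinases and phosphatases 3 and 4 of 10 and for the RNA-binding regulators 6 and 20 of 43. With NTX-301 the shares of the LSM family (21.4%), the SMN complex (25%) and the Prp19 group (13.3%) were near or under that of all genes. Under NTX-301 the SR-like genes and the RNA-binding regulators had more lower calls in HL-60 than in MOLM-13, a difference between lines not tested for the lists. The largest single falls in MOLM-13 were those of GEMIN6, an SMN complex protein (-0.31 with DAC, limma adjusted p = 3.76e-04), PPIL1, a spliceosomal prolyl isomerase (-0.39 with NTX-301, limma adjusted p = 3.31e-06), and ILF2, a double-stranded RNA-binding partner protein (-0.30 with DAC, limma adjusted p = 2.67e-05, and -0.38 with NTX-301, limma adjusted p = 3.13e-06). Among those that rose were SRRM2, a large SR-related protein of nuclear speckles (0.20 with DAC, limma adjusted p = 0.0077, and 0.25 with NTX-301, limma adjusted p = 0.00125), SCAF1 (0.21 with DAC, limma adjusted p = 0.00117) and RNPC3, a protein of the minor spliceosome (0.18 with NTX-301, limma adjusted p = 0.0122). In HL-60, ZMAT2 (-0.25, limma adjusted p = 4.31e-05) and RSRC2 (-0.23, limma adjusted p = 7.48e-05) were lowest and KHDRBS3 (0.16, limma adjusted p = 0.00311) and LSM14B (0.12, limma adjusted p = 0.00853) highest with DAC. With NTX-301, LSM7, an LSM ring protein (-0.26, limma adjusted p = 1.84e-06), and SYNCRIP, an hnRNP by structure (-0.23, limma adjusted p = 2.23e-06), were lowest, and RBM4B (0.12, limma adjusted p = 0.00829) and SRRM2 (0.10, limma adjusted p = 0.0142) highest. RBM4B was not called without HL-60 NTX-301 replicate 2 (0.09), nor SRRM2 without HL-60 DMSO replicate 2 (0.08) or HL-60 NTX-301 replicate 2 (0.07); RNPC3 in MOLM-13 was not called without MOLM-13 DMSO replicate 3 (0.13).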

How the data were processed

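Total RNA of 18 samples was sequenced from stranded libraries. The authors deposited normalised log2 values per gene for each sample, which were joined here by line. The submitters' processing notes name FastQC, Trimmomatic 0.38, HISAT2, StringTie and hg19. The normalisation is not given in the sources used here. No counts were used, so depth and counting error are unknown; values of low genes may be compressed by the authors' offset.

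Genes entered the test when 3 or more samples had a linear value of 1 or more. Each line was fitted with its 9 samples (6 residual degrees of freedom) in limma 3.58.1 under R 4.3.3 (lmFit, eBayes with trend). The difference between lines was fitted over both (12 degrees of freedom). P-values were Benjamini-Hochberg adjusted over all genes, with a threshold of 0.05. The procedure was checked on simulated data.

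The members and lists were chosen with earlier results of these data known. Named per comparison were the 4 highest and 4 lowest called members (3 and 3 between lines), plus SF3B1, SRSF2, U2AF1, PRPF8, all SF3A and U2AF genes, SRSF1, SRSF3, HNRNPA1, HNRNPA2B1, HNRNPK, HNRNPC, SNRPB and SNRPN, and of the other splicing genes the 2 highest and 2 lowest against DMSO. Further members named in the text as examples were chosen after their values were seen. Alternatives were other scalings, filters, offsets and tests, a replicate block and leaving out each replicate. Promoters came from RefSeq (GRCh38.p14), and lengths from GENCODE coding transcripts paired with a RefSeq ID of the gene.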

Additional observations from a re-analysis of the deposited data

Results flagged for a closer look

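The effects of both drugs differed between the lines, by an interaction term in limma over all 18 samples. For DAC, the effect in MOLM-13 was the lower one for 37 members and the higher one for 1, against 17.9% and 12.1% of all genes, and for 21 and 4 members after quantile normalisation. The named members were PRPF40B (0.28), SNRPN (-0.46), SNRPG (-0.30) and SNRPD3 (-0.23). For NTX-301, 43 members had a lower effect in MOLM-13 and 6 a higher one, against 22.4% and 17.6% of all genes. The named members were SRSF8 (0.20), PRPF18 (0.19) and SRSF11 (0.18), higher, and SNRPB (-0.44), SNRPG (-0.42) and SNRPN (-0.38), lower. The stated concentration differed between the lines, so that line and concentration cannot be told apart.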

How the results depend on the processing

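Quantile normalisation changed the counts of members most. Members called higher became 10 (DAC) and 12 (NTX-301) in HL-60, 18 for NTX-301 against DAC there, in MOLM-13 3 (DAC), 8 (NTX-301) and 2 (NTX-301 against DAC), and 4 for the difference in DAC effect between lines; members called lower became 19 with NTX-301 in HL-60 and 21 for the difference in DAC effect. It reversed medians in HL-60 to 0.0034 (HNRNP, DAC), 0.0047 (SNRP, NTX-301), 0.018 (HNRNP, NTX-301 against DAC) and 0.013 (PRPF, NTX-301 against DAC). The PRPF medians became 0.015 (DAC) and 0.0047 (NTX-301) in MOLM-13 and 0.038 (DAC) and 0.057 (NTX-301) for the differences between lines. Single values reversed by it were SF3B1 0.030, SF3A2 0.014 and U2AF2 0.044 (NTX-301, HL-60), PRPF8 0.032, SF3A1 0.066 and HNRNPA2B1 0.072 and SF3B2 0.015 (DAC, MOLM-13) and SF3A1 0.050, U2AF1L4 -0.0021 and HNRNPA2B1 0.070 (NTX-301, MOLM-13). Median centring of the samples gave 1 member higher with NTX-301 in each line, and 27 lower for NTX-301 against DAC in HL-60, with medians of -0.034 over the members and -0.020 (SF3B) there and -0.019 (SF3B) for NTX-301 against DMSO, where SNRPG became -0.00063. With that centring 33.8% of all genes were lower for NTX-301 against DAC in HL-60, with a median of -0.034. Requiring a difference of at least 0.1 left 11 lower and 2 higher with DAC in HL-60, 16 lower and 1 higher with NTX-301, and 5 lower for NTX-301 against DAC. Fitting only the 2 groups compared gave 3 higher with DAC in HL-60, a filter on a mean log2 value of at least 5 gave 1 higher with DAC in MOLM-13, and eBayes without trend gave 1 higher for NTX-301 against DAC in MOLM-13. Calls of single genes were lost with eBayes without trend for HNRNPUL2, SF3B1 and SNRPB (DAC, HL-60), HNRNPH3 and SRRM2 (NTX-301, HL-60), PRPF8 (NTX-301, MOLM-13) and SNRPN (difference in NTX-301 effect), and with only the 2 groups compared for U2AF1, U2AF1L5 and HNRNPLL (DAC, HL-60) and SRSF9 (NTX-301 against DAC, MOLM-13). The cause of these changes was not tested.

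Leaving out 1 replicate at a time, the members called ranged as follows. With DAC in HL-60 they were 1 to 7 higher and 16 to 27 lower, with NTX-301 2 to 8 and 24 to 30, and for NTX-301 against DAC 5 to 10 and 8 to 11. In MOLM-13 they were 0 to 1 higher and 44 to 48 lower with DAC, 1 to 3 and 44 to 50 with NTX-301, and 0 to 1 and 1 to 4 for NTX-301 against DAC. Between lines they were 1 higher and 29 to 37 lower for DAC, and 5 to 7 and 37 to 44 for NTX-301. The values that changed sign when 1 replicate was left out ranged in HL-60 from -0.049 to 0.016 (U2AF1L4) and -0.0082 to 0.025 (SF3A1) with DAC, and from -0.037 to 0.033 (SF3A2), -0.0099 to 0.088 (SNRPG), -0.016 to 0.024 (U2AF2) and -0.0045 to 0.022 (SF3B median) with NTX-301. In MOLM-13 they ranged from -0.022 to 0.033 (SF3A1) and -0.062 to 0.013 (HNRNPA2B1) with DAC and from -0.054 to 0.0011 (SF3A1) with NTX-301. None of these single genes was called.

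With the replicate number as a replicate block, members called higher and lower were 7 and 25 (DAC, HL-60), 8 and 29 (NTX-301, HL-60), 8 and 11 (NTX-301 against DAC, HL-60), 0 and 48 (DAC, MOLM-13), 1 and 49 (NTX-301, MOLM-13), 0 and 2 (NTX-301 against DAC, MOLM-13), 1 and 34 (difference in DAC effect) and 6 and 40 (difference in NTX-301 effect). Samples of the same number correlated between -0.16 and 0.12 in their deviations, so no shared effect of the number was visible. With 3 samples a group this cannot exclude that samples of a number belong together. With the block, 193 of 200 single values kept their side of the threshold. The replicates alone set the error; without counts the depth behind it is unknown.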
